A study of Solanum lycopersicum with 8 samples.

Results

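The polyamine synthesis genes of tomato were followed in seedlings treated with the kinase inhibitor Torin2. The group held 8 genes, taken by gene identifier from the table of 34688 genes: the arginine decarboxylases *SlADC1* and *SlADC2*, the ornithine decarboxylase *SlODC1*, 3 S-adenosylmethionine decarboxylases (*SAMDC*) and 2 spermidine synthases (*SPDS*). Values were found for 7 of the 8 genes, and *SlADC1* was not analysed here. All 7 were among the 22330 genes tested, for which the 8 libraries averaged 0.1 FPKM or more. FPKM is the number of fragments of a gene per kilobase of the gene, scaled to the depth of the library, so that levels of different genes can be set side by side.

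RNA was taken from entire wild-type seedlings of Micro-Tom, a dwarf tomato cultivar, at an age of 10 days. The 4 Torin2 libraries came from seedlings given 5 μM Torin2, an inhibitor of the TOR kinase, and the 4 mock libraries from seedlings given 0.1% DMSO. Growth was at 25 °C, and the exposure to the inhibitor lasted 2 h. The libraries of a group are biological replicates, and the sources used here do not say how many seedlings went into each. The contrast asks which transcripts differ when TOR, a kinase that links nutrients to growth, is blocked in an otherwise unstressed seedling.

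Polyamines are small, positively charged molecules that bind nucleic acids and membranes. Plants make the diamine putrescine either from arginine through agmatine, a route that arginine decarboxylase begins, or directly from ornithine, through ornithine decarboxylase. S-adenosylmethionine decarboxylase supplies the aminopropyl group, and spermidine synthase joins it to putrescine to give spermidine, from which spermine and thermospermine are made. In many plants the arginine route is the one known for its response to cold, drought and salt.

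Of the 7 genes, *SlADC2* had the largest log2 fold change. The study also followed *SlADC2* and *SlOTC*, a neighbour of the pathway, by RT-qPCR, but with Torin2 under cold stress. Its cold treatments used older plants, sprayed with a higher dose of the inhibitor, so that they do not repeat the contrast analysed here. The primers of these RT-qPCR assays, designed by the study, are shown to identify the transcripts, *SlADC2* being *Solyc10g054440* on chromosome 10 and *SlOTC* *Solyc04g080610* on chromosome 4. Each is written 5′ to 3′ in lower case, with no part set in capitals.
*SlADC2* forward primer: agtcgttccacaacatgcca
*SlADC2* reverse primer: cctattgcacattctgcgcc
*SlOTC* forward primer: agcgtcgtcaggtgtttcaa
*SlOTC* reverse primer: gtgcttcaaccacgccatta

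The 8 libraries held between 36989257 and 39868131 fragments, which were recovered from the FPKM values. The libraries of each group were of 2 kinds, told apart by the leading principal component once group means were subtracted, which took 53.6% of the remaining variance. Mock replicates 1 and 2 and Torin2 replicates 2 and 4 were of the first kind, and the other 4 libraries of the second. The 10 genes with the most fragments took 5.63% to 6.91% of the fragments in the first kind and 8.59% to 12.0% in the second. The labels name no batch, and each kind held 2 libraries of each group. Over all genes tested the median log2 fold change was 0.16, and it was 0.01 after median-of-ratios scaling. Transcripts of shoot and of root were both present, judged by genes named in the study's list of Torin2-regulated genes. Their ranges over the 8 libraries thus include the difference between the groups. A Rubisco small chain (*Solyc02g085950*) was at 633 to 3284 FPKM, and of 2 Casparian strip membrane proteins of the root endodermis, *Solyc09g010200* was at 4.36 to 17.2 FPKM and *Solyc02g067190* at 0 to 0.730 FPKM. Such bulk samples cannot tell fewer cells of a type from less RNA per cell.

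Among the 7 genes, *SlADC2* was 1.94-fold higher in the Torin2-treated seedlings, the 3 *SAMDC* genes were 1.47-fold to 1.66-fold higher on average, the 2 *SPDS* genes were at 0.692 and 0.659 times their mock level, and *SlODC1* was nearly level at 1.04-fold. None of the 7 passed both cut-offs, a log2 fold change beyond 1 in either direction and an adjusted p below 0.05 (limma with Benjamini-Hochberg adjustment over all genes tested). Of all genes tested, 8.32% did, 5.31% upward and 3.0% downward, and after median-of-ratios scaling the counts of 1186 upward and 671 downward became 769 and 1011. By the adjusted p alone 1 of the 7 passed, *SlADC2*, against 12.6% of all genes (7.53% upward and 5.08% downward), so that the count for the 7 genes was near that background. Before adjustment 5 of the 7 had a p under 0.05, against 29.1% of all genes, and limma-voom on the recovered fragments also placed 0 of the 7 past both cut-offs. The median log2 fold change of the 7 genes was 0.56.

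**Figure D1:**
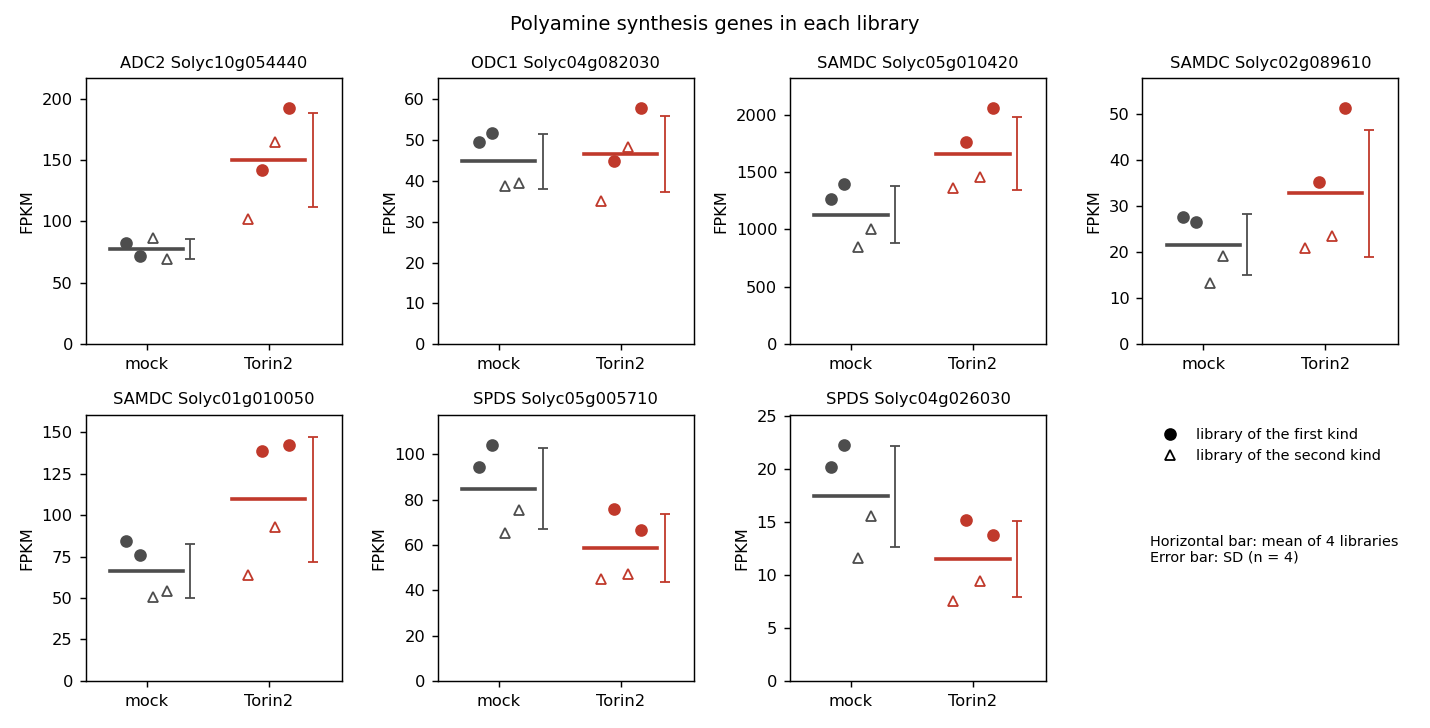
FPKM of the 7 polyamine synthesis genes in each of the 8 libraries, with the mean (bar) and SD (error bar, n = 4) of the mock and the Torin2 group, each vertical axis starting at 0. Filled circles are libraries of the first kind and open triangles of the second. In *ADC2* the 4 Torin2 libraries (102 to 192 FPKM) lie above the 4 mock libraries (69.4 to 86.1 FPKM), and in the other 6 genes the groups overlap.

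The arginine route was represented by *SlADC2*, which encodes the enzyme that removes the carboxyl group of arginine. Its level was 82.0, 71.6, 86.1 and 69.4 FPKM in mock replicates 1 to 4 and 102, 141, 165 and 192 FPKM in Torin2 replicates 1 to 4. The lowest Torin2 library was above the highest mock library, so that the groups did not overlap. Of all genes tested, 19.2% had groups that did not overlap, 11.4% with Torin2 above mock and 7.77% with Torin2 below. The mean was 77.3 ± 8.07 FPKM (SD, n = 4) in mock and 150 ± 38.1 FPKM (SD, n = 4) in Torin2 libraries, with a log2 fold change of 0.93 (standard error 0.22, 95% interval 0.46 to 1.39, adjusted p = 0.0126 by limma), or 0.76 above the median of all genes. The interval spans the fold change cut-off of 1. An exact two-sided permutation test gave p = 0.0286, the smallest that 4 libraries against 4 allow. Of all genes tested, 9.44% had a higher log2 fold change.

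Torin2 replicate 1 was the lowest of its group for *SlADC2*. Without it the log2 fold change was 1.10 (limma adjusted p = 0.0015) and the gene passed both cut-offs. Without mock replicate 4 the adjusted p was 0.0547, and it was 0.0563 once each library's trend with gene length was removed, where the log2 fold change was 0.69. Under the other alternatives run the adjusted p was under 0.05. In libraries of the first kind *SlADC2* averaged 76.8 FPKM in mock and 167 FPKM in Torin2, and in those of the second 77.8 and 133 FPKM. The mock mean was thus nearly equal in both kinds of libraries. The Torin2 means differed, but Torin2 replicate 3 of the second kind (165 FPKM) was above Torin2 replicate 2 of the first (141 FPKM).

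The ornithine route was represented by *SlODC1* (*Solyc04g082030*, chromosome 4), which encodes the enzyme that makes putrescine directly from ornithine. It was at 49.5, 51.7, 38.7 and 39.4 FPKM in mock replicates 1 to 4, and at 35.1, 45.0, 48.4 and 57.9 FPKM in Torin2 replicates 1 to 4. The Torin2 libraries extended below and above the mock range. Means were 44.8 ± 6.71 FPKM (SD, n = 4) and 46.6 ± 9.38 FPKM (SD, n = 4), and they differed by 0.05 on the log2 scale (standard error 0.22), with a limma adjusted p of 0.916 and an exact permutation p of 0.829. The 95% interval of -0.41 to 0.50 leaves out a change of the size of the fold change cut-off in either direction. The sign of this value was negative (-0.11) after median-of-ratios scaling.

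The routes were compared inside each library as the ratio of *SlADC2* to *SlODC1*, which no scaling of whole libraries can change. A trend with gene length can change it, the genes being of 2124 and 1296 bp. Once that trend was removed, the log2 fold changes of *SlADC2* and *SlODC1* were 0.69 and 0.10, against 0.93 and 0.05 before. The ratio was 1.66, 1.39, 2.23 and 1.76 in mock replicates 1 to 4 and 2.91, 3.14, 3.41 and 3.32 in Torin2 replicates 1 to 4. The lowest Torin2 ratio exceeded the highest mock ratio. Relative to their mean, the Torin2 ratios lay closer together than the *SlADC2* levels themselves. In mock the reverse held, the ratios being more spread than the *SlADC2* levels. The mean ratio was 1.76 ± 0.350 (SD, n = 4) in mock and 3.20 ± 0.219 (SD, n = 4) in Torin2-treated seedlings, a difference of 0.88 on the log2 scale. This difference was 1.09 between libraries of the first kind and 0.67 between those of the second. The ratio was chosen with earlier results known and is given with no test, and *SlADC1* is not part of it.

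The S-adenosylmethionine decarboxylases make the donor of aminopropyl groups, and 1 of the 3 genes dominated. They lie on chromosomes 5 (*Solyc05g010420*), 1 (*Solyc01g010050*) and 2 (*Solyc02g089610*). *Solyc05g010420* accounted for 91.0% to 94.1% of the summed FPKM of the 3 genes in every library, *Solyc01g010050* for 4.44% to 7.16% and *Solyc02g089610* for 1.45% to 2.28%. With a mean of 1395 FPKM over the 8 libraries, *Solyc05g010420* ranked 88th of the 22330 genes tested. It was measured at 1270, 1398, 849 and 1005 FPKM in mock replicates 1 to 4 and at 1358, 1765, 1454 and 2059 FPKM in Torin2 replicates 1 to 4. Only Torin2 replicate 1 fell inside the mock range, below mock replicate 2. The log2 fold change was 0.56 (standard error 0.22, 95% interval 0.10 to 1.02), with an adjusted p of 0.0999 (limma) and an exact permutation p of 0.0571.

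The less abundant *SAMDC* genes had similar values. *Solyc01g010050* was at 84.2, 75.7, 50.6 and 54.4 FPKM in mock replicates 1 to 4 and at 64.1, 139, 92.9 and 142 FPKM in Torin2 replicates 1 to 4. Here too Torin2 replicate 1 was the single Torin2 library inside the mock range. Its log2 fold change was 0.69 (limma, standard error 0.27 and adjusted p = 0.106). *Solyc02g089610* was at 27.6, 26.5, 13.3 and 19.2 FPKM in mock replicates 1 to 4 and at 21.0, 35.4, 23.6 and 51.4 FPKM in Torin2 replicates 1 to 4. The groups overlapped in Torin2 replicates 1 and 3, which were both of the second kind, and the log2 fold change was 0.56 (limma, standard error 0.31 and adjusted p = 0.237). All 3 log2 fold changes were positive under each alternative run, but that of *Solyc02g089610* was 0.32 without Torin2 replicate 4 and 0.35 without mock replicate 3. The limma adjusted p ran from 0.00408 to 0.264 for *Solyc05g010420*, from 0.00307 to 0.268 for *Solyc01g010050* and from 0.0174 to 0.539 for *Solyc02g089610*. The lowest of each came from the fit with the kind of library, read from the same data, as a covariate. Without Torin2 replicate 1 the limma adjusted p was 0.0450 for *Solyc05g010420*, 0.0155 for *Solyc01g010050* and 0.0972 for *Solyc02g089610*. With the length trend removed it was 0.0276 for *Solyc05g010420* and 0.0185 for *Solyc01g010050*. The fold changes of both genes were under the cut-off in these fits. The share of each gene in the family sum differed little between groups, being 92.8 ± 0.613% in mock and 92.3 ± 1.39% in Torin2 libraries for *Solyc05g010420* (SD, n = 4).

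Spermidine synthases join the aminopropyl group to putrescine, and both genes, *Solyc05g005710* on chromosome 5 and *Solyc04g026030* on chromosome 4, had lower means under Torin2. *Solyc05g005710* was at 94.6, 104, 65.1 and 75.3 FPKM in mock replicates 1 to 4 and at 45.0, 76.0, 47.2 and 66.6 FPKM in Torin2 replicates 1 to 4. Torin2 replicates 2 and 4, both of the first kind, lay inside the mock range. Its log2 fold change was -0.54 (standard error 0.23, 95% interval -1.04 to -0.05), with a limma adjusted p of 0.136. *Solyc04g026030* was at 20.2, 22.3, 11.6 and 15.6 FPKM in mock replicates 1 to 4 and at 7.55, 15.2, 9.44 and 13.7 FPKM in Torin2 replicates 1 to 4. The same Torin2 libraries lay inside its mock range, and its log2 fold change was -0.61 (standard error 0.28, 95% interval -1.21 to -0.01, limma adjusted p = 0.165). The more abundant gene was 4.95 ± 0.451 times as high as the other in mock and 5.20 ± 0.512 times in Torin2 libraries (SD, n = 4).

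For both *SPDS* genes the adjusted p depended on the scaling of the libraries and on other choices of processing. After median-of-ratios scaling the log2 fold changes were -0.70 and -0.77, with limma adjusted p of 0.00741 for *Solyc05g005710* and 0.0116 for *Solyc04g026030*, and the fold change stayed under the cut-off. Over all alternatives the adjusted p ran from 0.00348 to 0.305 for the first and from 0.0065 to 0.35 for the second. The log2 fold changes were negative under each alternative run.

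**Figure D2:**
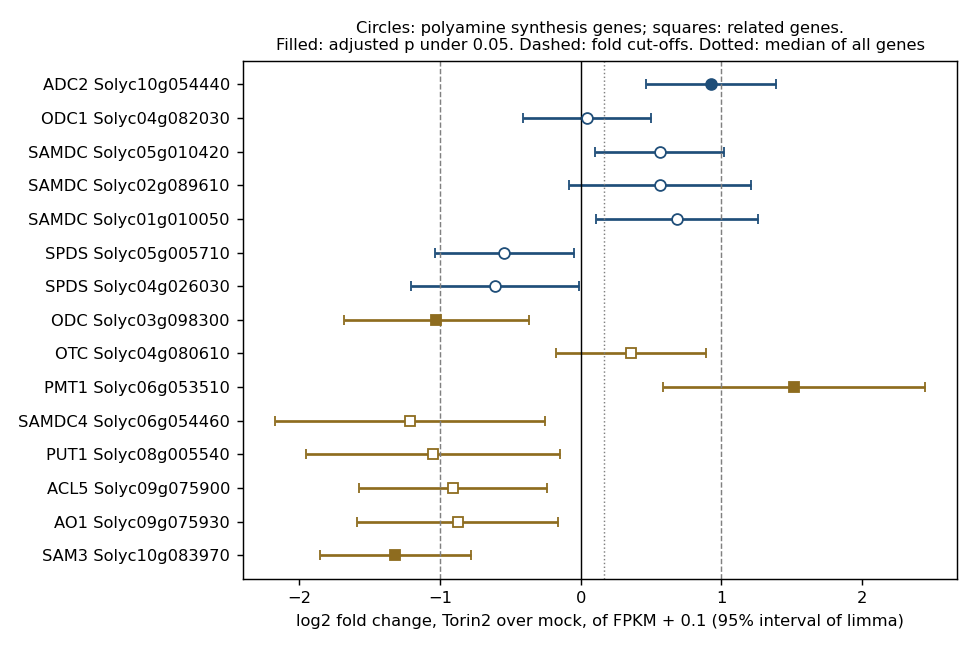
Log2 fold change of FPKM + 0.1, Torin2 over mock, with the 95% interval of limma, for the 7 polyamine synthesis genes (circles) and 8 related genes (squares), filled where the adjusted p was under 0.05. Dashed lines mark the fold change cut-offs and the dotted line the median of all genes tested (0.16). *ADC2* at 0.93 is the only filled circle, and *SAM3*, *ODC* and *PMT1* are the filled squares.

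The kind of library moved with most of these genes. In mock-treated seedlings the 3 *SAMDC* genes, both *SPDS* genes and *SlODC1* were higher in each library of the first kind than in either of the second, as 1334 against 927 FPKM on average for *Solyc05g010420* and 99.4 against 70.2 FPKM for the *SPDS* gene *Solyc05g005710*. In Torin2-treated seedlings the same held for the *SAMDC* and *SPDS* genes, with averages of 1912 and 1406 FPKM for *Solyc05g010420*. The direction of the treatment difference was the same in both kinds for all 7 genes. For *Solyc05g010420* it was 0.52 (first kind) and 0.60 (second kind) on the log2 scale, and for *Solyc05g005710* it was -0.48 and -0.60. With the kind as a covariate, 6 of the 7 genes had a limma adjusted p under 0.05, from 0.00257 for *SlADC2* to 0.0174 for *Solyc02g089610*, and *SlODC1* had 0.816. Of all genes, 38.2% had an adjusted p under 0.05 in that fit, against 12.6% without the covariate. The kinds had been read from the same data, which by construction lowers the remaining variance, and none of the 7 exceeded the fold change cut-off.

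The balance of aminopropyl donor to transfer was computed inside each library as the summed FPKM of the 3 *SAMDC* genes over that of the 2 *SPDS* genes. It was 12.0, 11.9, 11.9 and 11.9 in mock replicates 1 to 4, and 27.5, 21.3, 27.7 and 28.1 in Torin2 replicates 1 to 4. The mock mean was 11.9 ± 0.0879 (SD, n = 4), although the *SAMDC* and *SPDS* levels themselves differed between the kinds of libraries, and all Torin2 libraries were above the mock libraries. The Torin2 mean was 26.1 ± 3.25 (SD, n = 4). On the log2 scale the groups differed by 1.12, by 1.03 between libraries of the first kind and by 1.22 between those of the second. The sums were formed after the directions of both families had been seen, so that the difference is a description with no test.

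**Figure D3:**
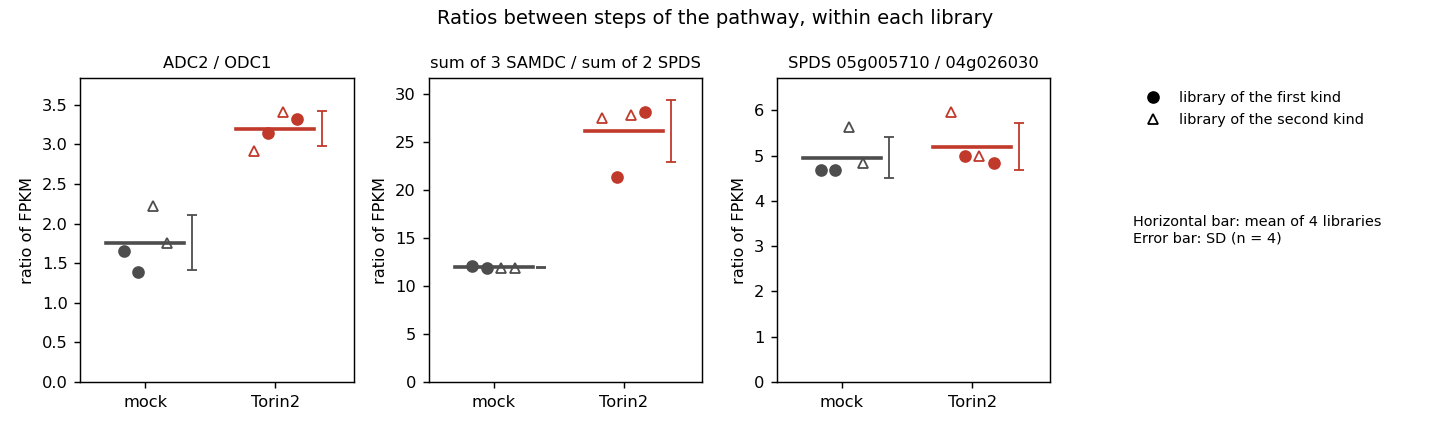
Ratios of FPKM between steps of the pathway in each of the 8 libraries, with the mean (bar) and SD (error bar, n = 4), each vertical axis starting at 0, and filled circles for the first and open triangles for the second kind of libraries. The ratios of *ADC2* to *ODC1* and of the summed *SAMDC* to the summed *SPDS* genes do not overlap between groups, whereas the ratio of the 2 *SPDS* genes does.

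Levels per length ordered the genes as follows in mock-treated seedlings. *Solyc05g010420* (*SAMDC*) was far above the rest, at 1130 ± 249 FPKM (SD, n = 4). The *SPDS* gene *Solyc05g005710* at 84.8 ± 17.8 FPKM, *SlADC2* at 77.3 ± 8.07 FPKM and the *SAMDC* gene *Solyc01g010050* at 66.2 ± 16.3 FPKM (SD, n = 4) followed, and the ranges of neighbours in this order overlapped. *SlODC1* at 44.8 FPKM came next, its highest library just above the lowest of *Solyc01g010050*, and was above the range of *Solyc02g089610* (*SAMDC*, 21.7 ± 6.70 FPKM), which overlapped with that of the *SPDS* gene *Solyc04g026030* (17.4 ± 4.79 FPKM, SD, n = 4). In Torin2-treated seedlings *SlADC2* was above *Solyc05g005710* in 4 of 4 libraries, with no overlap of their ranges, whereas the *SPDS* gene was the higher of the 2 in 3 of 4 mock libraries. The levels rest on the lengths that the FPKM values imply, which ran from 1083 bp for *Solyc05g010420* to 2124 bp for *SlADC2* and were multiples of 3 for 4 of the 7 genes. Between 403 and 86582 fragments stood behind each value.

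Other genes of polyamine metabolism could be named for 8 identifiers, 1 from the text of the paper (*SlOTC*) and 7 from the descriptions in its list of Torin2-regulated genes. These 7 were chosen by the study in these same libraries, as genes that differed between the groups. Neither their directions nor how many of them passed is therefore independent evidence. The shares of all genes given beside the counts cannot show an excess for genes chosen in this way. Of the 8 genes, 1 passed both cut-offs upward and 2 downward, against 5.31% and 3.0% of all genes, with a median log2 fold change of -0.97. After median-of-ratios scaling the downward count was 6, against 4.53% of all genes, and with TPM scaling it was 1, against 2.36%.

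Between the substrates of both routes, *SlOTC* encodes ornithine transcarbamoylase, which turns ornithine into citrulline on the way to arginine. It was at 20.2, 25.1, 14.1 and 17.0 FPKM in mock and at 20.8, 30.6, 17.8 and 29.0 FPKM in Torin2 replicates 1 to 4. The groups overlapped in Torin2 replicates 1 and 3, and the log2 fold change was 0.36 (limma, standard error 0.25 and adjusted p = 0.370). *SAM3* (*Solyc10g083970*) encodes an S-adenosylmethionine synthase, the source of the substrate that the *SAMDC* enzymes and ethylene synthesis share. It fell from 125, 147, 69.2 and 109 FPKM in mock to 40.0, 52.2, 32.3 and 52.9 FPKM in Torin2 replicates 1 to 4. No Torin2 library reached the mock range, and the log2 fold change was -1.32 (limma, standard error 0.25 and adjusted p = 0.00383). The gene passed both cut-offs under each alternative that gave an adjusted p.

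A second ornithine decarboxylase, *Solyc03g098300*, was expressed far below *SlODC1*, at 1.72, 2.50, 1.50 and 2.32 FPKM in mock and 0.713, 1.05, 0.811 and 1.15 FPKM in Torin2 replicates 1 to 4. It fell by 1.03 on the log2 scale (limma, standard error 0.31 and adjusted p = 0.0416), with 33 to 52 fragments per Torin2 library. The groups did not overlap. The call was lost when any single library other than mock replicate 3 was left out (limma adjusted p from 0.0512 to 0.131). Added to *SlODC1*, it moved the log2 difference of the arginine to ornithine ratio from 0.88 to 0.92. *SAMDC4* (*Solyc06g054460*) was at 1.18 to 2.56 FPKM in mock and 0.174 to 1.21 FPKM in Torin2 libraries, the lowest resting on 7 fragments in Torin2 replicate 1. Its log2 fold change of -1.22 had a limma adjusted p of 0.0883, and of 0.0476 (log2 fold change -1.47) without Torin2 replicate 2. It was -0.72 (adjusted p = 0.169 by limma) without Torin2 replicate 1 and -1.02 (0.253) without mock replicate 4, and between libraries of the first and second kind it was -0.61 and -1.82.

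Genes that use, move or break down polyamines completed the list. *ACL5* (*Solyc09g075900*) is listed as a spermidine synthase and carries the name of the *Arabidopsis* thermospermine synthase, which acts in the xylem. It was at 20.9, 20.8, 13.6 and 18.9 FPKM in mock and at 4.62, 13.2, 11.4 and 12.6 FPKM in Torin2 replicates 1 to 4, with no overlap. Its log2 fold change was -0.91 (limma, standard error 0.31 and adjusted p = 0.0697), -1.06 with an adjusted p of 0.0464 without Torin2 replicate 2, and -0.56 with an adjusted p of 0.0972 without Torin2 replicate 1. *PUT1* (*Solyc08g005540*), a polyamine transporter, was at 1.24 to 1.95 FPKM in mock and 0.206 to 1.18 FPKM in Torin2 libraries, with a log2 fold change of -1.05 (limma adjusted p = 0.115). The value of *PUT1* was -0.60 without Torin2 replicate 1, where 13 fragments were counted, and -0.47 and -1.63 between libraries of the first and second kind. *AO1* (*Solyc09g075930*), an amine oxidase, was at 1.09 to 2.57 FPKM in mock and 0.694 to 1.11 FPKM in Torin2 libraries, with a log2 fold change of -0.88 (limma adjusted p = 0.0989). For *PUT1*, *AO1*, *ACL5* and *SAMDC4* the call depended on the scaling. After median-of-ratios scaling *PUT1* and *AO1* passed both cut-offs, at -1.21 and -1.02 (limma adjusted p of 0.0420 and 0.0110). So did *ACL5* and *SAMDC4*, at -1.07 and -1.38 (limma adjusted p of 0.0119 and 0.0387). With TPM scaling *PUT1* and *AO1* did not, at -1.02 and -0.86 (limma adjusted p of 0.219 and 0.222). Nor did *ACL5* and *SAMDC4*, at -0.89 and -1.18 (limma adjusted p of 0.175 and 0.168).

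*PMT1* (*Solyc06g053510*) encodes putrescine N-methyltransferase, which in nightshades draws putrescine into alkaloids. It rose from 0.175, 0.152, 0.0563 and 0.359 FPKM in mock to 0.924, 1.04, 0.465 and 0.405 FPKM in Torin2 replicates 1 to 4. The groups did not overlap, but only 3 to 19 fragments per library stood behind the mock values. The log2 fold change was 1.52 (limma, standard error 0.44 and adjusted p = 0.0350), and it fell to 0.51 with a pseudocount of 1 FPKM. The call was also lost without mock replicate 1, 2 or 3 or Torin2 replicate 1 or 2 (limma adjusted p from 0.06 to 0.0958).

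**Figure D4:**
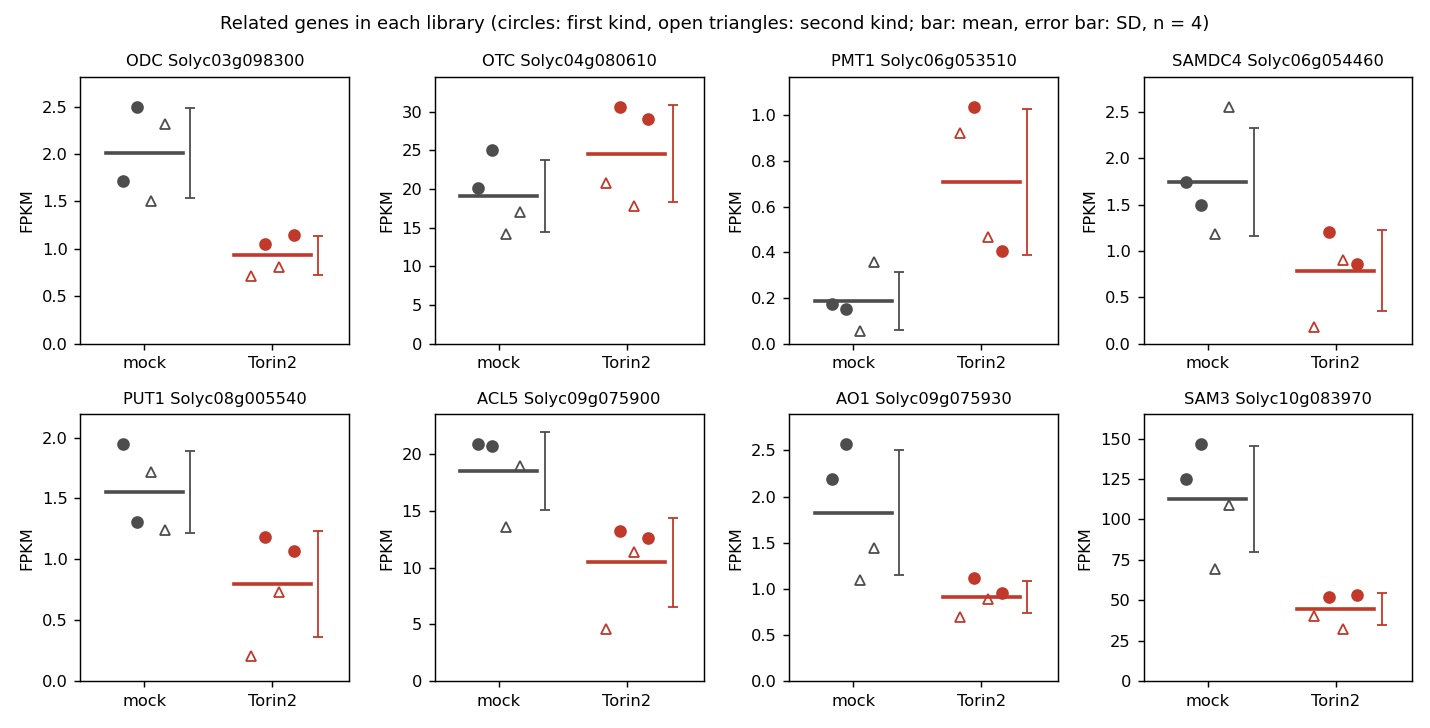
FPKM of the 8 related genes in each of the 8 libraries, with the mean (bar) and SD (error bar, n = 4), each vertical axis starting at 0, and circles for the first and open triangles for the second kind of libraries. *SAM3* (32.3 to 52.9 FPKM in Torin2 against 69.2 to 147 FPKM in mock), *ODC*, *PUT1* and *ACL5* lie below the mock range in all Torin2 libraries, *PMT1* lies above it, and *OTC*, *SAMDC4* and *AO1* overlap.

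Genes with profiles most like those of *SlADC2* and *SlODC1* were sought among the 18546 genes that averaged 1 FPKM or more, by the mean absolute difference of the centred log2 values over the 8 libraries. Nearest to *SlADC2* were *Solyc06g036330.1*, *Solyc01g087350.3* and *Solyc01g009430.3*, with differences of 0.10 each on the log2 scale. *Solyc01g009430.3* was at 80.7 ± 7.45 FPKM in mock and 155 ± 27.3 FPKM in Torin2 libraries (SD, n = 4), close to the levels of *SlADC2* itself. Nearest to *SlODC1* were *Solyc02g082850.3*, *Solyc07g049490.3* and *Solyc07g005660.4*, with differences of 0.06 to 0.07. The sources used here give no description for these 6 genes.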

How the data were processed

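Paired reads of 150 bp were aligned by the authors with HISAT2 to the SL4.0 assembly of tomato, and fastp, SAMtools and HTSeq are named without a role in the submitters' processing notes. The authors deposited FPKM values, 1 column per library. The annotation release and the FPKM tool are not given in the sources used here. Fragments, gene lengths and depth were recovered as the whole numbers that give back the FPKM values of 25571 genes above 0 to within 0.0001 fragments. The depth was 36989257 to 39868131 fragments per library. The 95% intervals are those of limma for the difference between the groups, and the SD describes the spread between the 4 samples of a group.

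Log2(FPKM + 0.1) was fitted with limma 3.58.1 (mean-variance trend, no covariate) in R 4.3.3 for 22330 genes, with Benjamini-Hochberg adjustment over all of them, and genes were called where the adjusted p was below 0.05 and the log2 fold change beyond 1 in either direction, the cut-offs of the study's methods. Exact two-sided permutation tests used 70 assignments. The fit was tested on simulated data, where it called 200 of 200 changed genes (median absolute log2 fold change 1.93) and 5 unchanged genes. These changes were larger than those of the polyamine synthesis genes, and the simulation held no kinds of libraries. It thus does not show how the fit treats smaller changes. Further steps used numpy 2.4.6 and pandas 2.3.3 in Python 3.11.15. The 8 genes, the related genes matched by description and the ratios were chosen with earlier results of these data known. The genes named are these, and the 3 nearest profiles of *SlADC2* and *SlODC1*. Alternatives were other pseudocounts (1 and 0.01 FPKM), filters and scalings, a replicate block, limma-voom on recovered fragments, removal of the trend with gene length (loess, span 0.3), the kind of library as a covariate and the omission of single libraries. The replicate block together with the length correction was added after seeing the data. No genome, promoter or protein sequence was used.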

Additional observations from a re-analysis of the deposited data

Results flagged for a closer look

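In 1 of 30 groups of 4 libraries, a single library lay far from the other 3 on the log2 scale, where chance alone gives 1.5 such groups. It was Torin2 replicate 1 in *ACL5* (*Solyc09g075900*), at 4.62 FPKM (226 fragments) against 11.4 to 13.2 FPKM in the other Torin2 libraries. The gap to the nearest library was 0.858 of the range of the group on that scale, above the 95% critical value of Dixon's test. Without this library the log2 fold change of *ACL5* was -0.56 (limma adjusted p = 0.0972), against -0.91 with it.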

How the results depend on the processing

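Of 154 values of the 7 genes under the alternatives, 148 did not change sign or cross the cut-offs. Leaving out single libraries, *SlADC2* ran from 0.79 to 1.10 on the log2 scale, the highest without Torin2 replicate 1, so that 0 to 1 of the 7 genes passed both cut-offs. *SlODC1* ran from -0.066 to 0.17 (-0.02 without mock replicate 3, -0.01 without mock replicate 4 and -0.066 without Torin2 replicate 4), and was -0.11 with median-of-ratios scaling and with limma-voom. The cause of these changes was not tested. Over all genes, 1857 passed both cut-offs (1086 with a pseudocount of 1 FPKM, 1161 to 2218 without single libraries). The 1186 upward calls became 642 with that pseudocount, 769 with median-of-ratios or TPM scaling, 736 with quantile normalization, 770 with the length trend removed, 739 with the length trend and a replicate block, and 669 to 1560 without single libraries. The 671 downward calls became 444, 1011 with median-of-ratios scaling, 1067 with limma-voom, and 492 to 794 without single libraries. Of the related genes, the 1 upward call became 0 with a pseudocount of 1 FPKM, a minimum mean of 1 FPKM, TPM scaling or the block with the length trend, and 0 to 1 without single libraries. The 2 downward calls became 1 with that pseudocount, without a filter or with TPM scaling, 6 with median-of-ratios scaling, quantile normalization or limma-voom, 4 with the kind of library as a covariate, and 1 to 3 without single libraries.

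Same-numbered mock and Torin2 libraries deviated alike in replicates 2 and 3 (r = 0.38 and 0.40 across genes). In replicates 1 and 4 they deviated in opposite directions (r = -0.38 and -0.25). These signs follow the kinds of libraries, which same-numbered libraries share in replicates 2 and 3 only. The values therefore cannot tell whether the replicate numbers pair samples. With a replicate block 1909 genes passed both cut-offs (1235 upward, 674 downward), 0 of the 7 genes did, and *SlADC2* had a log2 fold change of 0.93 with a limma adjusted p of 0.0219. Depth limited the genes under about 1 FPKM, where 3 to 53 fragments stood behind each value of *PMT1*.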
